A study of Mus musculus with 6 samples.

Results

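The mitochondrial ribosomal protein genes were taken as the protein-coding mouse genes whose symbol begins with Mrpl or Mrps followed by a number, with pseudogenes left out and at least 10 counts in 3 or more of the 6 libraries. Of 78 such symbols in the count table, 77 met the count rule, out of 55357 gene identifiers listed and 21137 with at least 1 count. The members comprise 48 Mrpl and 29 Mrps genes. RNA was sequenced from LT-HSCs (long-term haematopoietic stem cells), the rare marrow cells that sustain blood formation over a lifetime, to compare wild-type (WT) mice with mice lacking Dcaf8, which encodes a substrate receptor of the CUL4 ubiquitin ligase. Each group held 3 young mice, with 1 library per mouse from 50 sorted Lin-Sca-1+c-Kit+CD150+CD48- bone marrow cells, and the mRNA was amplified at full length before sequencing. The sources used here give neither the knockout allele and its tissue range nor the strain or exact age.

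The mitochondrial ribosome, or mitoribosome, translates only the mRNAs made inside the mitochondrion, all of which code for subunits of the respiratory chain and the ATP synthase. Its RNA is made from mitochondrial DNA, while every one of its proteins is made from a nuclear gene, translated in the cytosol and imported. Part of these proteins descend from bacterial ribosomal proteins and the rest were added during the evolution of mitochondria. Haematopoietic stem cells rely little on respiration while quiescent and depend on it more as they begin to divide and differentiate.

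By position in the mitoribosome, 50 members belong to the large subunit and 26 to the small subunit. The large subunit holds 30 homologues of bacterial proteins and 20 mitochondria-specific proteins, and the small subunit 16 and 10. Mrps30 and Mrps18a carry small-subunit names but sit in the large subunit and were counted there. Mrps36 has the family name but is a component of the 2-oxoglutarate dehydrogenase complex of the citric acid cycle, so it was counted in neither subunit. The symbol outside the rule, Mrpl53, had 0 counts in all 6 libraries. In GENCODE M21, on build GRCm38, 695 of its 790 exon bases (88.0%) are shared with Ccdc142os and Gm42688, and the sources used here do not say how reads on shared bases were counted. The member nearest the rule from inside was Mrps6, with 420 to 892 counts per library.

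The libraries held 14461864 to 22386387 counts. On the CPM scale, where TMM normalisation brings each library to the same nominal depth (the scale of all single-gene levels below unless another is named), Dcaf8 stood at 290.5, 293 and 204 in the WT libraries and 74.3, 38.1 and 45.2 in the knockout libraries. The groups did not overlap, and the two-sided exact permutation test gave p = 0.1, the smallest that 3 against 3 allows. In the edgeR fit described below, the log2 fold change of Dcaf8 was -2.28 ± 0.28 (SE). Its adjusted p by the quasi-likelihood test was 0.739, so the deleted gene itself was not called. All 13 stem cell marker genes examined, among them Procr, Slamf1, Kit and Mecom, passed the filter for low counts, and their summed level was 2915 to 3578 CPM of the total count. Neutrophil granule genes summed to 6389 CPM in WT library 2 and to 123 to 289 CPM in the other 5. Ctsg and Mmp8 were at 0 in every library. Prtn3 made up most of the sum outside WT library 2, at 112, 158 and 147 CPM in WT and 241, 277 and 203 CPM in the knockout. Of the 6 granule genes that passed the filter, Prtn3 alone had a log2 fold change above 0 (0.78 ± 0.19, SE), and 5 were below. Erythroid genes (7) summed to 48.0 to 151 CPM and lymphoid genes (9) to 149 to 262 CPM. Macrophage genes (8) summed to 417 to 925 CPM, the highest again in WT library 2. Genes within a list differed. Hba-a1 was highest in WT library 2 (24.8 CPM) and Hbb-bt in knockout library 2 (139 CPM). C1qb was lower and Cd68 higher in every knockout library than in any WT library. Of the 6 macrophage genes that passed the filter, 3 had estimates above 0 and 3 below. In sorted pools of this kind, fewer cells of a type and less RNA per cell cannot be told apart.

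RefSeq promoters on GRCm38.p6, running from 250 bases before to 50 bases after the transcription start, were matched to 68 members (74 promoters of 300 bases). Mrpl13, Mrpl15, Mrpl19, Mrpl38, Mrpl4, Mrpl54, Mrps28, Mrps34 and Mrps35 had no entry. The bases upstream of 4 members are printed because they carry motifs of nuclear respiratory factor 1 (NRF1) or of ETS-family factors such as GABP, which are known regulators of nuclear genes for mitochondria. They run 5′ to 3′ on the gene's strand, and capitals mark the motif matches. Mrpl45, a protein near the exit of the nascent chain, and Mrpl12, a stalk protein, have NRF1 matches. Mrpl52 and Mrps22, both described further on, have ETS matches.
Mrpl45 (chr11:97315466-97315715, plus strand): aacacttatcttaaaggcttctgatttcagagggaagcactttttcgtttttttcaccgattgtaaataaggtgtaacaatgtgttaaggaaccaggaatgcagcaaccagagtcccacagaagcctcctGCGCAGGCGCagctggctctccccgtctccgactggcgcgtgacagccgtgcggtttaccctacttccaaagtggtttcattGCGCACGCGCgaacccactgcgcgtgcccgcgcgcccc
Mrpl12 (chr11:120484387-120484612, plus strand): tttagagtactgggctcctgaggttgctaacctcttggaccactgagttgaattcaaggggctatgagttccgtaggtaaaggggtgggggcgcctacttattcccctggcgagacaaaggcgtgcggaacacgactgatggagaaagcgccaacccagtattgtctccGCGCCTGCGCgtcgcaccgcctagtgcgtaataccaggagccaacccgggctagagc
Mrpl52 (chr14:54426659-54426908, plus strand): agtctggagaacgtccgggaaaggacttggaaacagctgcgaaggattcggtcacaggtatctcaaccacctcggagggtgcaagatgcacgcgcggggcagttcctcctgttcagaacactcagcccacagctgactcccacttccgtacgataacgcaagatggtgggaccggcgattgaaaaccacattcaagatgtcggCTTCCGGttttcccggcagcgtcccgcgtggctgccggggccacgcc
Mrps22 (chr9:98601680-98601929, minus strand): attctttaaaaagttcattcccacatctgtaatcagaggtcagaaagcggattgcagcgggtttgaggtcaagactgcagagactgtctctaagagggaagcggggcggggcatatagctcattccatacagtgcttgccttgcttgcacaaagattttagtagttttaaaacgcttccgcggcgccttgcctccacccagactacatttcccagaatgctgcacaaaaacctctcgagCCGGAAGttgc
The Mrpl45 stretch holds 2 NRF1 matches, which begin 120 and 38 bases before the start. The Mrpl12 match begins 81 bases, the Mrpl52 match 47 bases and the Mrps22 match 11 bases before it. The printed Mrpl12 stretch (226 bases) leaves out annotated exon bases and ends 25 bases before the start. Those of Mrpl45, Mrpl52 and Mrps22 end 1 base before it.

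Across the member promoters, searched on both strands, the NRF1 motif, GCGCA and GCGC with any 1 base between them, was found in 13 of 74 (17.6%), against 4.60% of all 32851 mouse promoters in the table and 9.81% of the 12616 promoters of genes tested here. The ETS motif CCGGAAG was found in 25 (33.8%), against 8.86% and 17.7%. The motif AAGATGGCG of YY1, a zinc-finger factor, was found in 8 (10.8%), against 1.40% and 3.02%. Among the 68 members with a promoter, 40 had at least 1 of these 3 motifs. The GC box GGGCGG occurred in 39 member promoters (52.7%), below its share among promoters of tested genes (60.9%) and above that of all promoters (35.7%). The letters TATAAA occurred in 5 (6.76%), close to the 7.08% of tested genes and below the 13.6% of all promoters. Median GC content was 58.5% for the members and 60.3% for promoters of tested genes. Of 8 YY1 matches 2 lay wholly before the start, against 11 of 16 NRF1 and 18 of 29 ETS matches. These numbers are small, and a difference in place was not tested. Overlaps between different motifs numbered 2, and a match of letters does not show that a factor bound.

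Members often began back to back with another gene. A protein-coding gene started within 1000 bases on the opposite strand, pointing away, for 19 of 77 members (24.7%), against 11.6% of the tested protein-coding genes and 7.24% of all protein-coding genes. Such neighbours include Ndufs6, a complex I subunit, beside Mrpl36, and Sars2, the mitochondrial seryl-tRNA synthetase, beside Mrps12. Others are Fau, which encodes a cytosolic ribosomal protein, beside Mrpl49, and the proteasome gene Psma2 beside Mrpl32. The rest include Hira, Klc4, Zfp189 and Helq, and a shared function of the neighbours was not tested.

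Every member was detected in every library. The lowest single count was 301, for Mrps31 in WT library 2, and the highest was 4829, for Mrpl42. Mean levels ran from 28.5 CPM for Mrps6 to 189 CPM for Mrpl42. The next highest were Mrps17 (173 CPM), Mrpl24 (169.9 CPM) and Mrps14 (168 CPM). Mrps18c (35.7 CPM), Mrps31 (41.8 CPM) and Mrpl1 (48.0 CPM) lay just above Mrps6. Levels of different genes are compared per kilobase of the principal mRNA in GENCODE M21, since longer mRNAs give more reads. Counts are per gene, so this scale and its order depend on the mRNA chosen. For Mrpl42 the principal mRNA has 666 bases and all annotated exons together 3682, and for Mrpl23 736 and 4883. On this scale the median member stood at 59.0 CPM per kb. Mrpl42 remained highest (284 CPM per kb), followed by Mrpl23, a protein of the exit tunnel rim (161 CPM per kb), Mrpl36 (148 CPM per kb) and Mrpl28 (140 CPM per kb). These last 3 lie closer together than the spread of any of them between libraries. The lowest were Mrpl1 (13.5 CPM per kb), Mrps35, Mrps25 (14.1 CPM per kb) and Mrps5. Their levels differ by less than their spread between libraries as estimated by edgeR (23.4% or more of the level). Mrps25 shares 69.8% of its exon bases with Nr2c2, and 32 members share some exon bases with another gene, so their levels depend on how shared reads were counted.

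No member was called different between the knockout and WT. By edgeR's quasi-likelihood test, with p-values adjusted over all genes by the Benjamini-Hochberg method, 0 of 77 members were called at an adjusted p under 0.05, and the smallest member adjusted p was 0.851. The background was the same, since edgeR called 0 of 14592 genes tested (0%) in either direction and limma-voom called 0. DESeq2 called 153 genes (0.861% of those given an adjusted p) with no member among them. Dcaf8 itself was among the genes that edgeR did not call, so a lack of calls here does not show a lack of difference. At an unadjusted p under 0.05 by edgeR, 1 member was higher in the knockout (Mrpl52) and 0 were lower, against 3.47% of all genes higher, 2.35% lower and 5.82% either way. By DESeq2 2 members (Mrpl52 and Mrps30) had an unadjusted p under 0.05, against 5.68% of all genes. The groups did not overlap for 3 members, with Mrpl52 and Mrps30 higher and Mrpl49 lower in the knockout. Over all genes the groups did not overlap, higher, for 5.91% and, lower, for 4.43% (10.3% in all), so the members' shares were below the background.

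The members' differences were centred near 0. The median log2 fold change, knockout over WT, was -0.01 over the members and 0.01 over all genes tested. Of the 77 estimates, 37 were above 0 and 40 below, from -0.53 (Mrpl49) to 0.76 (Mrpl52). The middle 50% lay between -0.14 and 0.16, a narrower band than the -0.28 to 0.35 of all genes. For tested genes within the members' range of mean CPM the band was -0.22 to 0.23. The median was -0.01 for the large subunit and -0.06 for the small, and 0.03 for bacterial homologues and -0.03 for mitochondria-specific proteins. The ratio of large- to small-subunit counts was 2.17, 2.25 and 2.32 in the WT libraries (mean 2.25 ± 0.0786, SD). All 3 knockout libraries lay between those extremes (mean 2.27 ± 0.0620, SD).

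**Figure D1:**
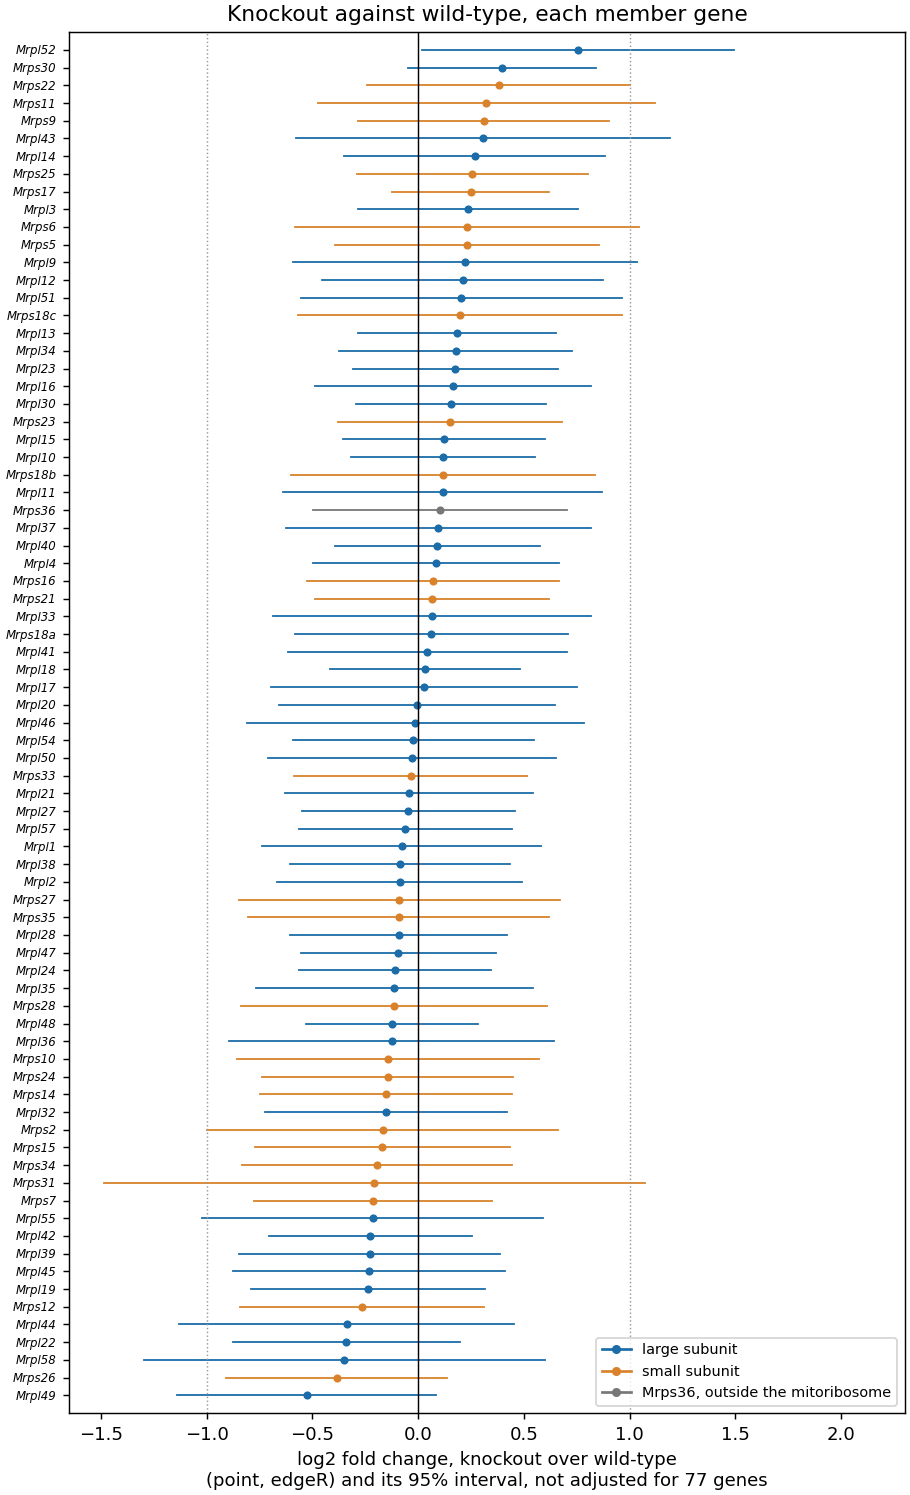
Log2 fold change of each of the 77 members, knockout over WT, as a point with its unadjusted 95% interval, coloured by subunit; dotted lines mark a 2-fold difference. The estimates run from -0.53 for Mrpl49 to 0.76 for Mrpl52, and only the interval of Mrpl52 leaves out 0.

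The precision behind these values was higher for the members than for most genes. The median biological coefficient of variation, the spread between libraries of 1 group beyond counting error, was 25.7% for members, 51.0% for all genes tested and 31.2% for the 6052 tested genes within the members' range of mean CPM. The median standard error of a log2 fold change was 0.26, 0.47 and 0.31 in the same order. For 66 of 77 members (85.7%) the 95% interval lay within a 2-fold difference either way, against 29.7% of all genes and 50.8% of genes in the same range. Intervals inside 1.5-fold either way were found for 8 members, so for most members a difference of that size lay within the interval.

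In the large subunit, the member with the smallest p was Mrpl52 (ENSMUSG00000010406), a mitochondria-specific protein with the shortest principal mRNA of the family (418 bases). It stood at 28.5, 52.4 and 35.1 CPM in the WT libraries and 55.1, 80.0 and 65.9 CPM in the knockout libraries. Every knockout library lay above every WT library, though the lowest knockout value exceeded the highest WT value by little. The means were 38.7 ± 12.3 and 67.0 ± 12.5 CPM (SD, n = 3 each), a log2 fold change of 0.76 ± 0.32 (SE), with an adjusted p of 0.851 by edgeR's quasi-likelihood test. Mrps30 (ENSMUSG00000021731), placed on the large subunit despite its name, stood at 87.4, 116 and 104 CPM in WT and 120.2, 142 and 146 CPM in the knockout. These groups also did not overlap, and the log2 fold change was 0.40 ± 0.19 (SE), with an edgeR adjusted p of 0.874.

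Mrpl49 (ENSMUSG00000007338), a mitochondria-specific protein, had the lowest estimate. Its levels were 107, 101 and 178 CPM in WT and 88.9, 90.8 and 89.2 CPM in the knockout. The knockout values were nearly equal and all below WT, while WT library 3 stood far above the other WT libraries. The log2 fold change was -0.53 ± 0.26 (SE; edgeR adjusted p = 0.874), and it was -0.22 without WT library 3.

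Mrpl22, a bacterial homologue that lines the exit tunnel, stood at 77.7, 78.3 and 69.0 CPM in WT and 52.2, 55.9 and 69.0 CPM in the knockout, so the groups met at their edge (log2 fold change -0.34 ± 0.23, SE). Mrpl42, the most abundant member, stood at 185, 234 and 189 CPM in WT and 136, 215 and 176 CPM in the knockout, with a log2 fold change of -0.23 ± 0.20 (SE). Mrpl44, a protein with a ribonuclease III-like fold, ranged from 48.4 to 110 CPM over the WT libraries and from 49.6 to 71.3 CPM over the knockout libraries. Its log2 fold change of -0.34 ± 0.34 (SE) rested on WT library 3, since it was between -0.01 and 0 without that library. None of these 3 passed the test.

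In the small subunit, the 4 members higher in the knockout with the smallest p were Mrps17, Mrps22, Mrps9 and Mrps25. Mrps17, a bacterial homologue, stood at 148, 175 and 151 CPM in WT and 179, 173 and 210.2 CPM in the knockout (log2 fold change 0.25 ± 0.16, SE). Mrps22, a mitochondria-specific protein, stood at 51.0, 38.1 and 46.4 CPM in WT and 60.4, 66.9 and 50.2 CPM in the knockout (0.38 ± 0.27). In both genes the highest WT library lay just above the lowest knockout library. Mrps9, a bacterial homologue, ranged from 61.9 to 85.1 CPM in WT and from 72.0 to 114.5 CPM in the knockout (0.31 ± 0.25). Mrps25, mitochondria-specific, ranged from 66.4 to 85.7 CPM and from 78.4 to 116 CPM (0.26 ± 0.24). Knockout library 2 was the highest of all 6 for Mrps9 and Mrps25, and without it their log2 fold changes were 0.15 and 0.10.

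Lower in the knockout with the smallest p in the small subunit were Mrps26 and Mrps12. Mrps26, mitochondria-specific, stood at 85.0, 103 and 122 CPM in WT and 73.2, 93.1 and 75.0 CPM in the knockout (log2 fold change -0.39 ± 0.22, SE). Mrps12, the homologue of the bacterial protein at the decoding centre, stood at 79.2, 93.1 and 111 CPM in WT and 65.7, 70.9 and 97.8 CPM in the knockout (-0.27 ± 0.25). In each gene 1 knockout library lay inside the WT range and the other 2 below it. The edgeR adjusted p of the 6 small-subunit genes named here lay between 0.910 and 0.963.

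**Figure D2:**
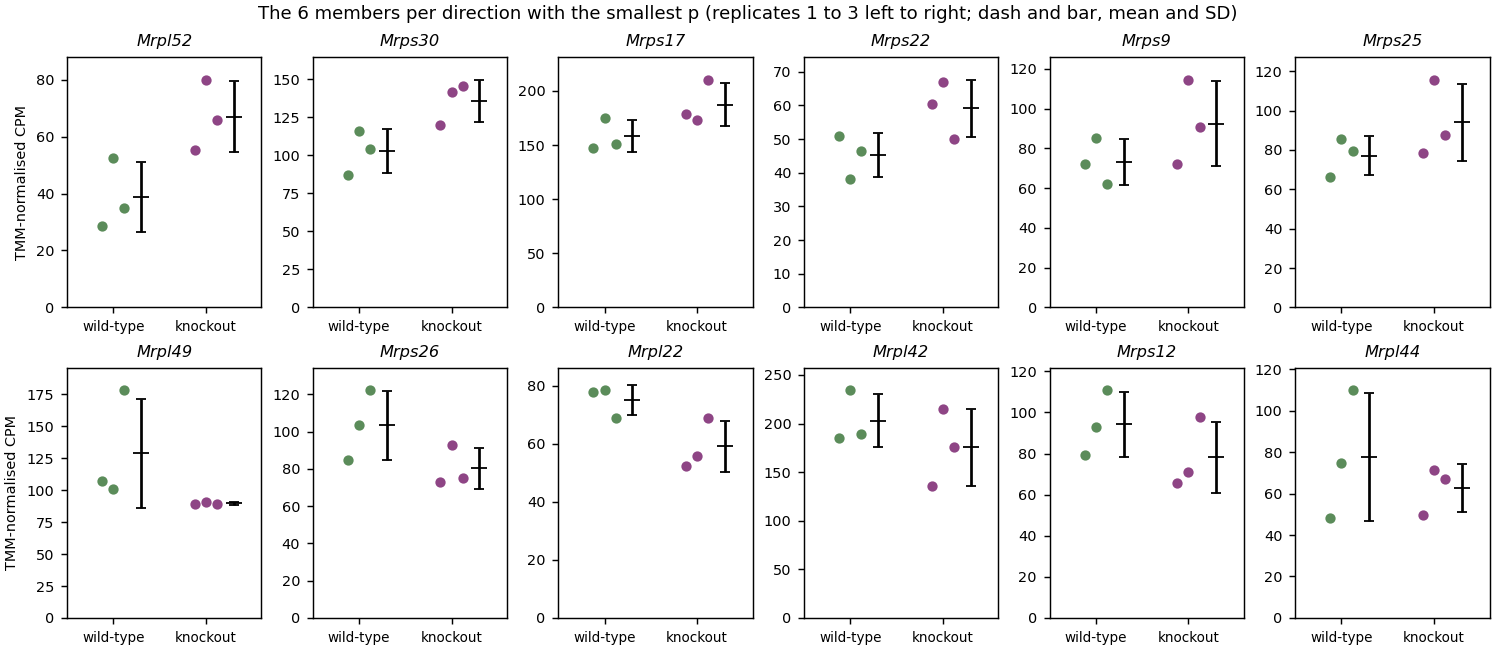
TMM-normalised CPM of the 6 members per direction with the smallest p, with 1 point per library (WT green, knockout purple, replicates 1 to 3 from left to right) and the group mean with its SD beside them; axes start at 0. The groups are apart in Mrpl52, Mrps30 and Mrpl49, and overlap in the other 9 genes.

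The 3 Mrps18 paralogues are related to each other and occupy different places in the mitoribosome. Mrps18c was counted as the homologue of the bacterial protein, and Mrps18a and Mrps18b were counted as mitochondria-specific although they share its ancestry. Per kilobase, Mrps18a stood at 109 CPM, Mrps18b at 50.1 CPM and Mrps18c at 43.6 CPM, the last 2 closer together than their spread between libraries. Mrps18a, in the large subunit, stood at 69.7, 101 and 112 CPM in WT and 77.6, 90.4 and 127 CPM in the knockout (log2 fold change 0.06 ± 0.28, SE). Mrps18b stood at 40.9, 68.9 and 46.0 CPM in WT and 51.0, 47.8 and 69.5 CPM in the knockout (0.12 ± 0.31). Mrps18c stood at 25.2, 40.5 and 32.6 CPM in WT and 37.2, 46.7 and 32.2 CPM in the knockout (0.20 ± 0.33). The groups overlapped in all 3 paralogues. Mrps36, the dehydrogenase component, stood at 41.9, 52.9 and 52.7 CPM in WT and 50.0, 61.3 and 49.9 CPM in the knockout (0.10 ± 0.26), with overlapping groups.

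Spread between libraries differed among members. Mrps31, a mitochondria-specific small-subunit protein, had the largest biological coefficient of variation (53.4%). It stood at 55.7, 14.6 and 66.9 CPM in WT and 54.6, 26.0 and 33.1 CPM in the knockout. Its 95% interval for the log2 fold change, -1.49 to 1.07, was accordingly the widest of the family. The smallest biological coefficient of variation was that of Mrps17 (17.5%), whose values are given above, followed by Mrpl48, a mitochondria-specific large-subunit protein (18.2%). edgeR draws each such estimate towards those of other genes of similar level, so this order is not that of the observed spread. The SD was 9.41% of the WT mean and 10.7% of the knockout mean for Mrps17, against 3.86% and 4.66% for Mrps21. Mrpl48 stood at 110.5, 112 and 103.5 CPM in WT and 105.5, 98.1 and 95.3 CPM in the knockout, and it was chosen after its values were seen.

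One pattern among the members ran across libraries within both genotypes. It was noticed in the data. The lowest of the 6 libraries was WT library 1 for 40 members and knockout library 1 for 21, together 61 of 77 (79.2%), against 32.9% of all genes tested and 35.1% of genes in the same range of mean CPM. The 2 libraries were the lowest pair for 30 members (39.0%), against 8.56% and 9.60%. Relative to each gene's mean over the libraries, the median member stood at -0.30 on the log2 scale in WT library 1 and at -0.16 in knockout library 1. It stood between 0.06 and 0.14 in the other 4 libraries. Both subunits shared the pattern, with 42 of 50 large-subunit and 18 of 26 small-subunit members lowest in 1 of these libraries.

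**Figure D3:**
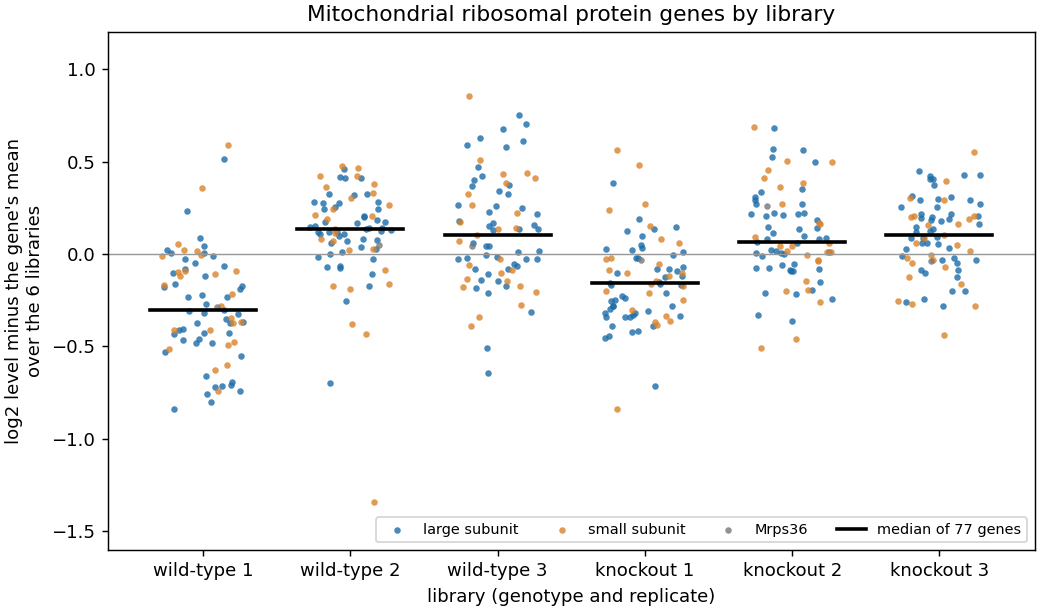
Log2 level of each member minus its mean over the 6 libraries, with 1 point per gene and the median of the 77 genes as a bar. WT library 1 (median -0.30) and knockout library 1 (median -0.16) lie below the other 4, whose medians are between 0.06 and 0.14.

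Summed over the members, the level was 5680, 7559 and 7546 CPM of the total count in WT and 6323, 7381 and 7421 CPM in the knockout. The group means, 6928 ± 1081 and 7042 ± 623 CPM (SD, n = 3 each), differed by less than the spread within either group. The members' median fold change moved with the libraries that entered the fit. Without WT library 1 the median was -0.11, with 25 members higher and 52 lower. Without knockout library 1 it was 0.07, with 50 higher and 27 lower. Without both it was -0.02, with 38 higher and 39 lower and 0 called. Without WT library 2, which had the highest sum of granule genes, it was 0.09, with 49 higher and 28 lower. Leaving out WT library 3 gave 0.07, with the same counts. Without knockout library 2 it was -0.04, with 36 higher and 41 lower, and without knockout library 3 it was -0.08, with 33 higher and 44 lower. WT libraries 2 and 3 thus moved the median about as far as the 2 low libraries did, and knockout libraries 2 and 3 moved it less. Relative to the median over all genes, the members lay furthest off without WT library 1 (-0.14, against -0.02 with all 6 libraries).

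Member mRNAs are short, with a median of 1316 bases against 2896 for genes in the same range of mean CPM, and transcript length moved with the library values in those genes. Among same-range genes, the median in WT library 1 rose with length from -0.23 (mRNAs up to 900 bases, 276 genes) to 0.16 (over 3000 bases, 2755 genes) on the log2 scale relative to each gene's mean. In knockout library 1 the same medians went from -0.07 to 0.08. Among the members, WT library 1 stood at -0.30 for the 18 of up to 900 bases, -0.33 for the next 28 of up to 1500, -0.17 for the next 14 of up to 3000 and -0.30 for the 17 over 3000. Knockout library 1 stood at -0.11, -0.17, -0.22 and -0.07 in the same classes, so neither library followed length in 1 direction. Of these classes 3 hold under 20 genes. The difference between members and other genes of the same length was not tested, nor was the part of transcript length in the library pattern. Dividing-cell genes (22 of the G2 and M phases) summed to 3326 CPM in WT library 1 and 830 and 737 CPM in the other WT libraries, and to 1809, 3125 and 2059 CPM in the knockout libraries, and their part was not tested.

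**Figure D4:**
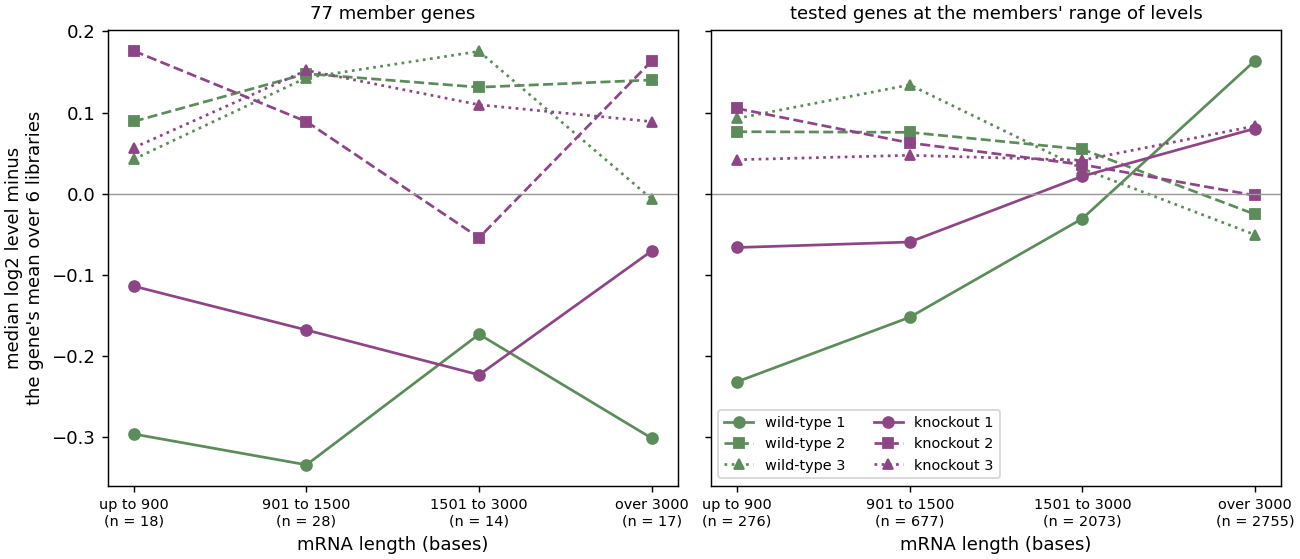
Median log2 level relative to each gene's mean over the 6 libraries, by principal mRNA length in bases, with 1 line per library, for the members (left) and the tested genes in the same range of mean CPM (right). In the right panel WT library 1 goes from -0.23 to 0.16 with length, and in the left panel it lies between -0.33 and -0.17 with no single direction.

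The other parts of mitochondrial translation were measured in the same libraries. WT library 1 or knockout library 1 was the lowest for 12 of 27 assembly factors, 6 of 17 translation factors, 7 of 20 synthetases and 37 of 79 cytosolic ribosomal proteins, beside the 61 of 77 members. It was the lowest for 3 of the 5 mitoribosome proteins with other names and for 7 of 12 mitochondrial chaperones and proteases. The 27 assembly factors of the mitoribosome summed to 1249, 1300 and 1386 CPM in WT and 1225, 1299 and 1410 CPM in the knockout. The 17 translation factors summed to 1146, 1101 and 1272 CPM and 1140, 1127 and 1209 CPM, and the 20 mitochondrial aminoacyl-tRNA synthetases to 1110, 1155 and 1213 CPM and 1174, 1154 and 1276 CPM. The groups overlapped in all 3 lists. The cytosolic ribosomal proteins (79 genes) summed to 23863, 23726 and 23365 CPM in WT and 23464, 26383 and 24030 CPM in the knockout, highest in knockout library 2. That list was taken by symbol, Rpl or Rps followed by a number. It therefore includes Rps19bp1 and Rpl7l1 and leaves out Rpsa and the Rplp genes. The 5 mitoribosome proteins with other names, such as Dap3 and Ptcd3, summed to 441, 516 and 587 CPM and 464, 524 and 459 CPM.

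**Figure D5:**
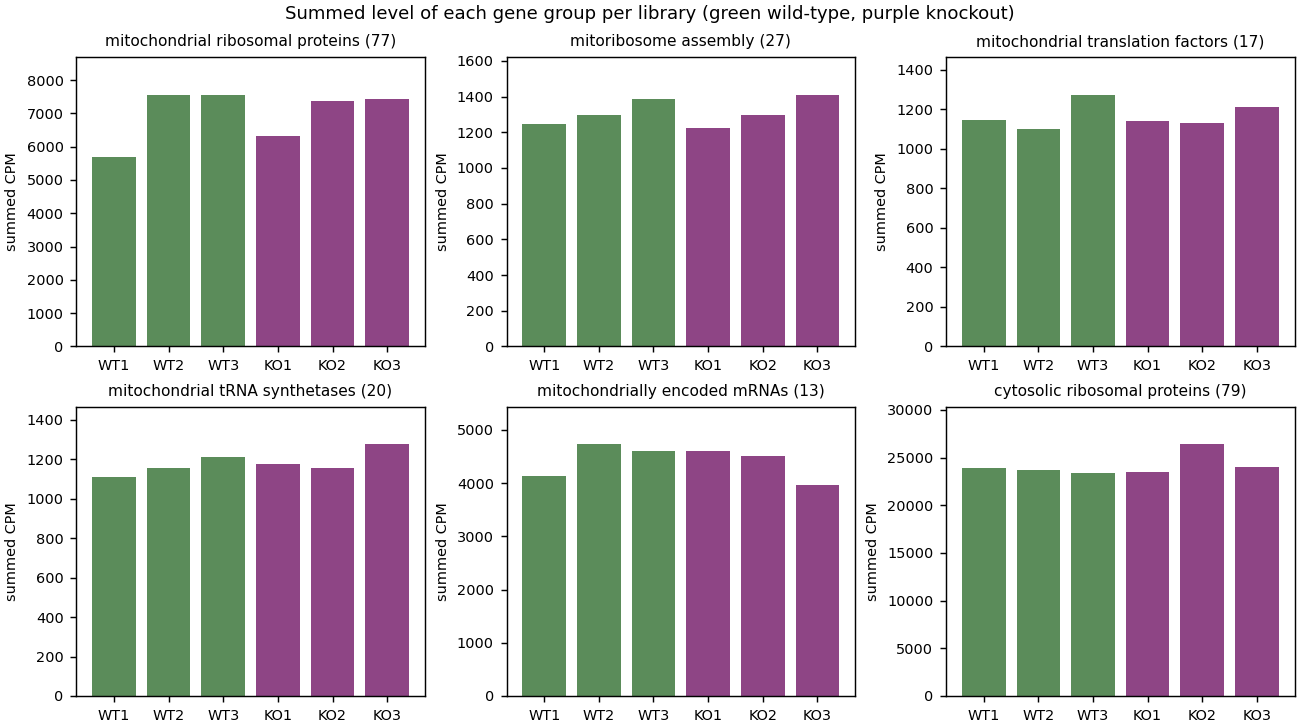
Summed CPM of the total count per library for the members and 5 related gene lists (number of genes in brackets), with bars from 0. The members are lowest in WT library 1 (5680) and knockout library 1 (6323), while the cytosolic ribosomal proteins are highest in knockout library 2 (26383).

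No gene of these lists was called by edgeR. Among the assembly factors, 0 of 27 were higher and 1 was lower at an unadjusted p under 0.05. That gene was Mettl15, which methylates the small-subunit rRNA, at 23.4, 42.5 and 51.9 CPM in WT and 12.9, 12.0 and 15.1 CPM in the knockout. The groups did not overlap, and the log2 fold change was -1.56 ± 0.44 (SE), with an edgeR adjusted p of 0.739. Noa1, a GTPase of small-subunit assembly, stood at 33.4, 34.5 and 50.7 CPM in WT and 74.3, 53.7 and 51.2 CPM in the knockout (0.61 ± 0.31). Among the translation factors, 0 of 17 reached an unadjusted p under 0.05. The nearest were Slirp, an mRNA-stabilising partner of Lrpprc (0.38 ± 0.20), and the ribosome recycling factor Mrrf (-0.51 ± 0.32). Among the synthetases, 1 of 20 was higher and 0 were lower at that level, Ears2 with 9.85, 10.7 and 1.17 CPM in WT and 26.7, 12.8 and 26.1 CPM in the knockout (1.67 ± 0.62; edgeR adjusted p = 0.837). Pars2, the mitochondrial prolyl-tRNA synthetase, came next in the other direction, at 50.7, 51.6 and 11.4 CPM in WT and 12.1, 16.4 and 14.3 CPM in the knockout. WT library 3 lay below all knockout libraries, so the groups overlapped (-1.43 ± 0.61, edgeR adjusted p = 0.857). Non-overlapping groups were found, higher and lower, for 4 and 0 of 20 synthetases, 1 and 3 of 27 assembly factors and 1 and 1 of 17 translation factors. The shares over all genes were 5.91% higher and 4.43% lower. Noa1, Slirp, Mrrf and Ears2 were among these genes. The synthetases had a median log2 fold change of 0.24, with 11 above 0 and 9 below.

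The templates that the mitoribosome translates and the RNA of the mitoribosome itself were measured in the same libraries. The 13 mitochondrially encoded mRNAs summed to 4136, 4727 and 4602 CPM in WT and 4598, 4518 and 3969 CPM in the knockout. Of these mRNAs 11 passed the filter for low counts, and among them mt-Co2 and mt-Co3 had means of only 3.96 and 2.90 CPM. The sum therefore rests on part of the list. The 2 mitochondrial rRNAs summed to 1388, 1569 and 1384 CPM in WT and 1442, 1321 and 1037 CPM in the knockout. The groups overlapped in both lists. The small-subunit rRNA, mt-Rnr1, was non-overlapping when taken alone, at 261, 326 and 262 CPM in WT and 255, 254 and 221 CPM in the knockout (log2 fold change -0.22 ± 0.15, SE; edgeR adjusted p = 0.925). The large-subunit rRNA, mt-Rnr2, overlapped between groups, at 1129, 1263 and 1140.2 CPM in WT and 1159.8, 1075 and 819 CPM in the knockout (-0.21 ± 0.14).

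The genes of the factors whose motifs were searched were expressed. Nrf1 stood at 128, 111 and 65.3 CPM in WT and 104, 90.8 and 121 CPM in the knockout (log2 fold change 0.07 ± 0.28, SE). Gabpa, the ETS subunit of GABP, stood at 162, 99.3 and 91.5 CPM in WT and 95.8, 105 and 105 CPM in the knockout (-0.20 ± 0.26), with overlapping groups. Yy1 stood at 36.4, 34.0 and 21.2 CPM in WT and 57.0, 50.9 and 44.6 CPM in the knockout, where the groups did not overlap (0.74 ± 0.32; edgeR adjusted p = 0.857). Members with a motif had median log2 fold changes of 0.03 (NRF1, 13 genes), 0.06 (ETS, 25 genes) and -0.10 (YY1, 8 genes), and members without it had -0.01, -0.03 and 0.03. Myc, whose product is known to promote ribosome production and mitochondrial biogenesis, stood at 718, 648 and 743 CPM in WT and 527, 539.5 and 488 CPM in the knockout. Its groups did not overlap (-0.44 ± 0.10), but the edgeR adjusted p was 0.739 and it was not called.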

How the data were processed

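The authors deposited 1 table of raw read counts per Ensembl gene identifier for the 6 libraries. Per the submitters' processing notes, Trimmomatic 0.39, HISAT2 2.2.1, Picard 2.26.1, HTSeq 1.99.2, DESeq2 1.38.3 and build mm39 were used; the sources used here name neither the annotation release nor the strand setting. Per the labels' protocol, cDNA of 50 cells was amplified and tagmented, and no molecular identifiers are mentioned, so reads are not independent molecules. Symbols were found for 52081 of 55357 identifiers; lengths, biotypes and overlaps came from GENCODE M21, and no count was lifted between builds. Of 265 list entries, 263 matched by symbol, 1 by synonym and 1 not at all.

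Counts were tested on all 6 libraries by genotype with edgeR 4.0.16 in R 4.3.3, by the quasi-likelihood test with TMM scaling. The filter, filterByExpr with a minimum count of 10 and total of 15, left 14592 genes. Benjamini-Hochberg adjustment was made over them, with a threshold of 0.05. A prior count of 2 was used for the log2 CPM behind the correlations between libraries, not in the test. The common biological coefficient of variation was 75.1%. Each library comes from its own mouse, so p-values cover spread between mice, amplification included. Alternatives were DESeq2 1.42.0, limma-voom 3.58.1 with sample weights, other scalings and filters, a replicate block and each library left out. Named members are, by unadjusted p, the first 6 in each direction, the 4 highest and lowest by CPM and per kilobase, the Mrps18 paralogues, Mrps30, Mrps36 and the member nearest the count rule; from the lists of assembly, translation factors, synthetases, mitochondrial rRNA, DNA maintenance and protein quality, the 2 genes with the smallest p (the remaining lists are given mainly as sums). The regulators Nrf1 and Gabpa were added for their motifs. Members and lists were chosen with earlier results of these data known. Motifs were searched as exact letters on both strands.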

Additional observations from a re-analysis of the deposited data

How the results depend on the processing

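No setting called a member. The 12 members followed across 15 alternatives kept their direction in all 180 values, with adjusted p of at least 0.491 (the lowest in DESeq2). They were picked by small p in the main fit and refitted on the same libraries, so a kept direction is not independent support. Mrpl44 kept it only barely without WT replicate 3 (-1.2e-04). DESeq2 called 153 genes against 0 by edgeR, none a member. Members at an unadjusted p under 0.05 numbered 1 in edgeR, 2 in DESeq2 (Mrpl52 and Mrps30), 0 with upper-quartile scaling, 0 in limma-voom and 0 without both WT replicate 1 and knockout replicate 1, a setting chosen after seeing the data; with 1 library left out in turn they numbered 0 to 2. Leaving out 1 library moved the members' median log2 fold change between -0.11 (without WT replicate 1) and 0.09 (without WT replicate 2). The causes were not tested. With the replicate number as a block, 0 members were called, 1 had an unadjusted p under 0.05 and the median was 0.02. Over all genes tested, deviations from the group mean gave r = 0.06, -0.04 and 0.01 between same-numbered libraries. Between differently numbered libraries r lay between -0.05 and 0.04. Such correlations cannot show whether same-numbered libraries shared a batch that touched fewer genes, and this was not tested. Single libraries also moved, by over 1.5 times in either direction, Mrpl42 (-0.07 without knockout replicate 1, -0.11 without WT replicate 2, -0.38 without knockout replicate 2), Mrpl44 (-0.58 without WT replicate 1, -0.18 without knockout replicate 1), Mrps12 (-0.14 without WT replicate 3 or knockout replicate 1, -0.47 without knockout replicate 3), Mrps9 (0.47 without knockout replicate 1), Mrps25 (0.16 without WT replicate 1), Mrps26 (-0.24 without WT replicate 3) and Mrps17 (0.16 without knockout replicate 3). limma-voom gave Mrpl44 -0.21, and Mrpl42 was -0.13 without both WT replicate 1 and knockout replicate 1. The members numbered 77 with minimums of 5, 10 or 20 counts. With 3 libraries a group, differences under about 1.5-fold were within the interval of most members.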

Other observations

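Mitochondrial chaperones and proteases, which fold and remove imported proteins, were measured in the same libraries. The 12 genes of this list summed to 1989, 2347 and 2113 CPM of the total count in the WT libraries and 1941, 1952 and 2419 CPM in the knockout libraries, and none was called by edgeR or reached an unadjusted p under 0.05. Afg3l2, a subunit of the inner-membrane protease that matures Mrpl32, stood at 96.9, 125 and 129.9 TMM-normalised CPM in WT and 167, 121 and 184 CPM in the knockout. Its groups overlapped, and the log2 fold change was 0.44 ± 0.22 (SE; edgeR adjusted p = 0.874). The chaperone Trap1 stood at 265, 285 and 345 CPM in WT and 197, 255 and 296 CPM in the knockout (-0.26 ± 0.19).

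Of the genes that copy and maintain mitochondrial DNA, Polg, the catalytic subunit of its DNA polymerase, stood at 64.7, 37.3 and 40.7 CPM in WT and 22.1, 32.3 and 26.0 CPM in the knockout. The groups did not overlap, and the log2 fold change was -0.85 ± 0.36 (SE; edgeR adjusted p = 0.853). Twnk, the helicase of the same replisome, stood at 90.7, 26.2 and 48.7 CPM in WT and 102, 81.3 and 104 CPM in the knockout (0.84 ± 0.40; edgeR adjusted p = 0.869), and its groups overlapped. Twnk shares exon bases with Mrpl43, whose own log2 fold change was 0.31.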
